A study of Mus musculus with 2 samples.

Results

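Epithelial cells of the thymic medulla were compared between 2 inbred mouse strains, NOD, which develops autoimmune diabetes spontaneously, and C57BL/6 (B6). Per the labels, all thymi came from female mice aged 6 weeks with no treatment or engineered allele named, and the sorted population was mTEC (medullary thymic epithelial cells) with low MHC class II and without surface podoplanin and CD104. Cells of 6 mice, 2 each of NOD, B6 and BALB/c, carried 1 hashtag antibody per mouse and were captured in 1 droplet library. The labels give both NOD hashtags the same replicate number. They were taken as 2 mice because another label names 2 NOD mice. A barcode was counted as epithelial when it had at least 500 genes, under 15% mitochondrial UMIs (distinct captured RNA molecules), no UMI of Ptprc (the leukocyte antigen CD45) and at least 3 UMIs over Krt5, Krt8, Krt14, Krt18 and Epcam. It was given to a mouse when 1 hashtag held at least 80% of at least 100 hashtag UMIs. These rules left 591 cells of NOD and B6 out of 3447 barcodes: 111 and 112 cells in the NOD mice (tagged HT6 and HT8) and 180 and 188 in the B6 mice (HT1 and HT2). The 901 BALB/c cells (361 and 540) entered the same fits to share the estimate of the spread, and their values are given beside those of the other strains.

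Medullary epithelial cells show self-antigens to developing T cells, and T cells that react strongly to them are deleted or become regulatory cells. Aire drives scattered expression of many tissue-restricted genes, and mimetic cells, which form largely after the Aire stage, take on whole programs of other tissues under lineage transcription factors, such as Pou2f3 in tuft-like cells, Spib and Sox8 in microfold-like cells and Hnf4 factors in enterocyte-like cells. Medullary epithelium also responds to interferons, which act through JAK kinases and STAT proteins on genes for antiviral defence and antigen presentation.

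The link from cell to strain rests on the hashtags, so the 4 oligonucleotides that define NOD and B6 cells are shown, with the whole barcode in capitals.
NOD HT6: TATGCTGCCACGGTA
NOD HT8: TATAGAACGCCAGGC
B6 HT1: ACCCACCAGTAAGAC
B6 HT2: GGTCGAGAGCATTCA
H2-Ea, a class II gene (chr17:34341959-34344645, minus strand, mm10) whose promoter is deleted in the haplotypes of B6 and NOD, checked the labels. It stood at 15.4 and 10.5 CPM (counts scaled to the same total in every mouse) under the NOD hashtags, 58.7 and 14.2 CPM under the B6 hashtags, and 1006 and 834 CPM under the BALB/c hashtags. Both strains with the deletion thus lay well below BALB/c, while the gene does not tell NOD from B6.

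The summed UMI counts were 2338900 and 2208100 in the NOD mice, 3165686 and 3116663 in the B6 mice and 5944625 and 9155637 in the BALB/c mice, with median depths per cell between 13498 and 14844 UMIs. NOD values therefore rest on the fewest cells. The median mitochondrial share of UMIs was 1.96% and 2.10% in NOD and 2.60% and 2.50% in B6. Of 17 immediate-early and heat shock genes, which respond to handling, 5 (Fos, Egr1, Dusp1, Zfp36 and Jund) were lower in NOD and none was higher, in the sums described below, where 12.0% of all genes tested were lower and 11.9% higher. The part of handling in the other results was not tested. Clustering of the 1492 assigned cells gave 14 clusters. By markers, clusters 2, 3 and 7 were tuft-like, 1 keratinocyte-like, 6 neuroendocrine-like, 11 ciliated-like, 10 muscle-like and 13 microfold-like. Cluster 13 passed 10 microfold markers and also 12 enterocyte-hepatocyte markers, with Hamp and Fabp1 among its leading genes. Cluster 0 passed 7 enterocyte-hepatocyte and 6 secretory markers, and cluster 9 passed all 15 cell cycle markers and 4 Aire stage markers. Igkc, Aire and Igha led cluster 9. Igkc and Igha are immunoglobulin genes that the B cell list used below does not hold, and their source was not tested. Clusters 4, 5, 8 and 12 stayed unnamed. The leading genes were Tagln, Acta2 and Ccl21a in cluster 5 and Kcnip4, Hs3st4 and Col6a2 in cluster 8. Clusters 4, 5, 8 and 12 passed 3 to 5 of the 7 markers of immature mTEC. Clusters 4, 7, 8 and 12 were shallow, with median depths of 4769, 8670, 8112 and 7109 UMIs. The other clusters lay between 16876 and 34462 UMIs. Median mitochondrial shares were 4.98%, 4.86%, 3.92% and 4.47% in these 4 clusters, and at most 3.18% in the others. The part of cell quality in the shares of clusters was not tested. No listed T cell, B cell or myeloid gene was called between NOD and B6 in the same sums. Their summed levels were 8.62 and 9.05 CPM (T cell), 122 and 94.8 CPM (B cell) and 869 and 338 CPM (myeloid) in NOD, against 17.8 and 46.8, 71.2 and 91.5, and 582 and 601 CPM in B6. Of 2 endothelial genes tested, Flt1, a VEGF receptor, was higher, at 36.7 and 83.4 CPM in NOD and 16.9 and 21.2 CPM in B6 (log2 1.65, adjusted p = 0.0282). The endothelial list summed to 43.1 and 89.1 CPM against 22.8 and 27.5 CPM, with Cdh5, a defining marker, at 0 UMIs in all 6 mice. Its part in the other results was not tested.

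The makeup of the epithelium differed between the strains. Of 12 clusters with at least 30 cells, 4 held a larger share of the NOD cells (33.3%) and 3 a smaller one (25.0%), in edgeR's quasi-likelihood test on cells per mouse with Benjamini-Hochberg adjustment. The test pooled the spread between mice over the clusters, so its p-values do not measure how a single cluster varied between mice. Cluster 8 took 24.3% and 30.4% of the NOD cells, against 0% and 2.13% in B6 and 0% and 0.185% in BALB/c (log2 difference 4.59 ± 0.63, here and below ± the SE, adjusted p = 1.37e-07). It held 61 NOD cells of 66 cells in all. All 4 of its B6 cells came from HT2, so the log2 difference was 3.65 without B6 HT1 and 9.16 without B6 HT2, and it stayed called (adjusted p = 0.00444 and 0.00161). Cluster 5 took 15.3% and 17.9% in NOD and 1.67% and 3.72% in B6 (log2 2.59 ± 0.58, adjusted p = 0.00034), a level that BALB/c shared (11.9% and 15.4%). Cluster 9, the cycling and Aire stage cells, was at 21.6% and 17.0% in NOD against 6.67% and 4.79% in B6 (log2 1.75 ± 0.49, adjusted p = 0.00266). In each of these clusters both NOD mice lay above both B6 mice. Cluster 4 was also higher, at 7.21% and 7.14% against 1.11% and 1.60% (log2 2.36, adjusted p = 0.0103), but its call was lost when 95% of hashtag UMIs on 1 hashtag were required (adjusted p = 0.1003). At that bound clusters 6 and 8 held fewer than 30 cells and were not tested. Clustering without the 1099 genes called within clusters on sums of at least 5 cells, an alternative chosen after seeing the data, again gave 4 higher and 3 lower. Those genes came from clusters 0, 1, 2, 5, 9 and 11 only. Genes that differ by strain within clusters 4, 6, 7 and 8 could thus remain. The alternative therefore cannot decide whether strain differences in expression set these clusters apart.

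**Figure D1:**
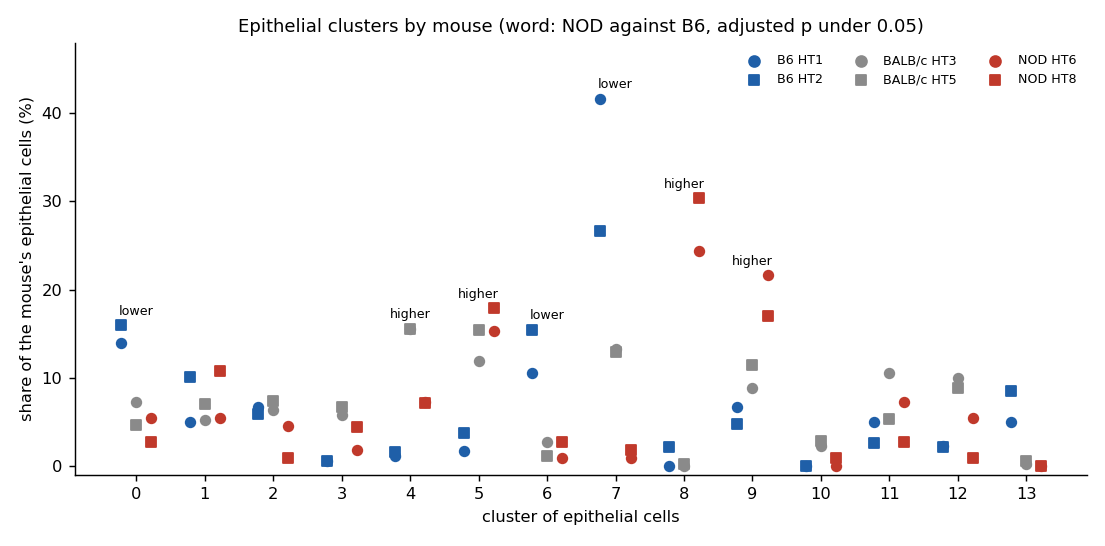
Share of each mouse's epithelial cells (%, vertical axis) in each of 14 clusters (horizontal axis). Each point is 1 mouse, and the words mark clusters called higher or lower in NOD than in B6. Cluster 7 held 41.7% and 26.6% of the B6 cells and 0.901% and 1.79% of the NOD cells, and cluster 8 held 24.3% and 30.4% of the NOD cells.

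Tuft-like cells, named for the taste-signalling epithelial cells of gut and airway, were scarce in NOD. Clusters 2, 3 and 7 together held 7.21% and 7.14% of the NOD cells (16 cells) and 48.9% and 32.98% of the B6 cells (150 cells). The difference lay in cluster 7, with 3 NOD cells against 125 in B6 (log2 -4.61 ± 0.65, adjusted p = 1.37e-07, edgeR), while clusters 2 (log2 -1.20, adjusted p = 0.159) and 3 (log2 2.43, adjusted p = 0.0716) were not called. Without NOD HT6 both were called, cluster 2 lower (log2 -2.75, adjusted p = 0.0308) and cluster 3 higher (log2 2.94, adjusted p = 0.0254). Cluster 3 was also called higher with TMM scaling (adjusted p = 0.0367) and with 60% of hashtag UMIs on 1 hashtag (adjusted p = 0.039). The hashtag rule did not keep these cells evenly. Of tuft-like cells whose leading hashtag was HT6 or HT8, 66.7% of 12 and 44.4% of 18 passed it, against 86.6% and 89.7% of the other NOD epithelial cells and 83.0% of 106 and 77.5% of 80 tuft-like cells in B6. Counted by leading hashtag whatever its share of at least 100 hashtag UMIs, the shares were 8.53% and 11.5% in NOD and 46.7% and 34.3% in B6, so NOD stayed below B6 by this count too.

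Genes were then compared on counts summed over all epithelial cells of a mouse. Of 15067 genes tested with edgeR, 1787 were higher (11.9%) and 1806 lower (12.0%) in NOD at an adjusted p under 0.05. The median log2 difference over all genes was -0.04. In such sums, fewer cells of a type and less RNA per cell cannot be told apart, so the shares of the clusters above are read beside each gene group. Leading genes of a cluster, such as Acta2, Col6a1, Dclk1, Reg3g, Ccl20, Pglyrp1, Aire and Mki67, move with its share, so their sums are no separate evidence. Clusters 5, 8 and 9 held 19.01%, 11.8% and 30.7% of the NOD UMIs and 2.48%, 0.499% and 10.3% of the B6 UMIs. Cluster 7 held 1.27% of the NOD and 21.1% of the B6 UMIs.

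**Figure D2:**
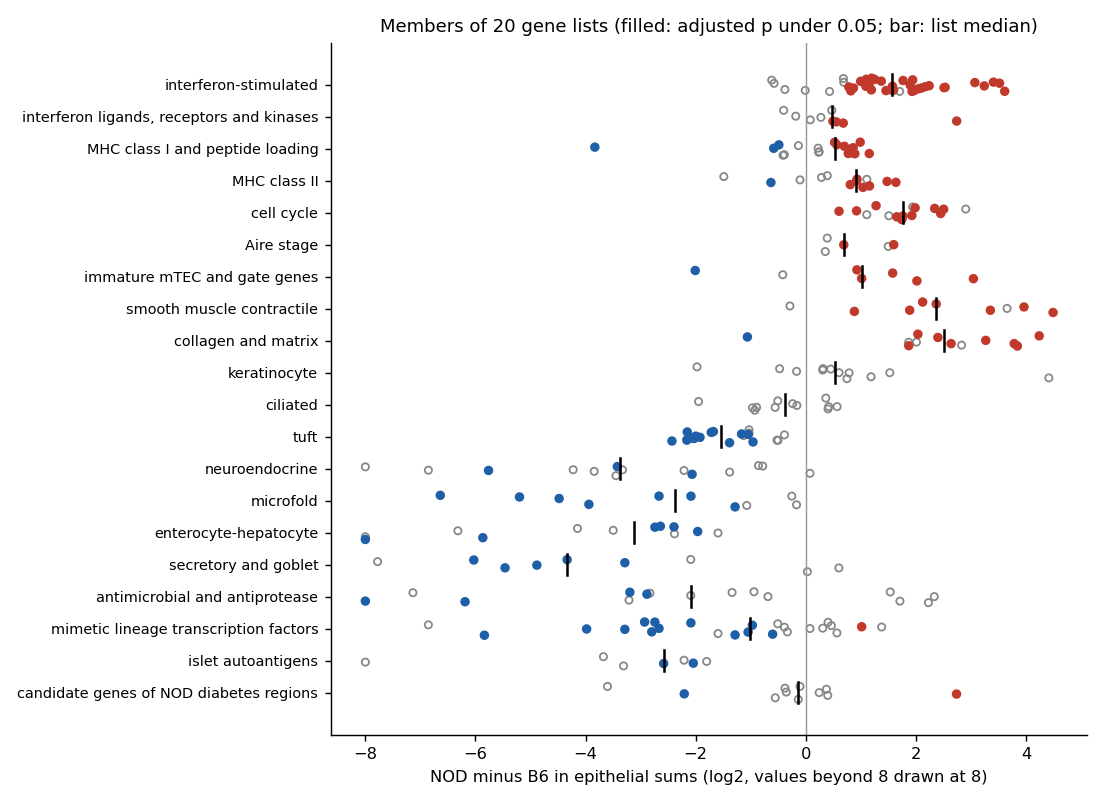
NOD minus B6 log2 difference in the epithelial sums (horizontal axis) for the tested members of 20 gene lists (rows). Filled points passed an adjusted p of 0.05 and the bar is the list's median, 1.57 for interferon-stimulated and -1.53 for tuft genes.

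Of 20 tuft genes, 13 were lower in NOD and none was higher, with a median log2 difference of -1.53. Pou2f3, the transcription factor required for tuft cells, stood at 33.1 and 44.8 CPM in NOD and 188 and 143 CPM in B6 (log2 -2.09 ± 0.20, adjusted p = 0.0012). BALB/c lay between, at 119 and 116 CPM. Trpm5, the taste transduction channel, was at 32.2 and 60.01 CPM in NOD and 229 and 180 CPM in B6 (log2 -2.15 ± 0.28, adjusted p = 0.00455). Dclk1, a kinase used as a tuft marker, was at 109 and 194 against 852 and 782 CPM (log2 -2.43, adjusted p = 0.00586). Il17rb, the receptor subunit for IL-25, was at 9.07 and 10.96 against 43.7 and 45.9 CPM (log2 -2.16, adjusted p = 0.00134). For these 4 genes the strains did not overlap, which held for all 3593 called genes and so adds nothing to the call. Other members showed smaller differences that were not called, such as Gnb3 (log2 -0.50) and Gng13 (log2 -0.52), subunits of the taste G protein. With the tuft-like clusters left out of the sums, 3 tuft genes were lower, and the Il17rb difference turned to 0.30 on the log2 scale (adjusted p = 0.768).

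Many genes of mucosal and secretory tissues were also lower. Of 12 enterocyte-hepatocyte genes tested, 6 were lower, of 10 microfold genes 7, of 9 secretory and goblet genes 5, and of 14 neuroendocrine genes 3, and none of these lists had a member that was called higher. Over all genes tested, 12.0% were lower. Without B6 HT2 the enterocyte-hepatocyte count was 3 and the microfold count 4. The secretory count was 3 without NOD HT6, BALB/c HT3 or BALB/c HT5, 2 without NOD HT8, and 1 when 60% of hashtag UMIs on 1 hashtag sufficed. The medians of the 4 lists were -3.12, -2.38, -4.34 and -3.38 on the log2 scale (the last -2.79 with members at 0 UMIs in NOD taken at their bound). Summed levels were 173 and 302 CPM in NOD against 7911 and 7516 CPM in B6 for the enterocyte-hepatocyte list. They were 1423 and 1126 against 3345 and 4000 CPM (microfold), and 273 and 416 against 1234 and 2102 CPM (neuroendocrine). The secretory sums were much closer, at 1221 and 1549 against 1595 and 1785 CPM, with BALB/c at 347 and 452 CPM. Of its tested genes, 2 had a positive difference. Reg3g, a secreted lectin that kills Gram-positive bacteria (chr6:78466269-78468872, minus strand), showed the widest gap in level, with 19.05 and 11.4 CPM in NOD against 6241 and 4845 CPM in B6 (log2 -8.50 ± 0.48, adjusted p = 0.000648), and BALB/c was also low at 95.5 and 173 CPM. Ccl20, the microfold chemokine that attracts CCR6-bearing cells, was at 7.26 and 10.0 CPM in NOD and 776 and 945 CPM in B6 (log2 -6.64, adjusted p = 0.00635). Gp2, the microfold receptor for bacterial pili, was at 29.5 and 2.86 against 653 and 550 CPM (log2 -5.20, adjusted p = 0.0178). Both NOD mice lay far below both B6 mice for each of these genes, and the strains did not overlap for any of the 3593 called genes. Cluster 0 held 5.41% and 2.68% of the NOD cells against 13.9% and 15.96% in B6 (log2 -1.87, adjusted p = 0.00562), and the neuroendocrine-like cluster 0.901% and 2.68% against 10.6% and 15.4% (log2 -2.83, adjusted p = 0.00113). No NOD cell fell in the microfold-like cluster, which also carried enterocyte-hepatocyte markers. This allows a share of up to 2.70% and 2.68% in the NOD mice (3 cells, counting error only). It held 25 B6 cells, and by leading hashtag of any share 43 B6 cells and 0 NOD cells. With 29 cells over all 6 mice it fell under the bound of 30 cells set for the test of shares, and its share was not tested.

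Among the secretory genes, Tff3, a trefoil peptide of mucus, was at 8.16 and 0.953 CPM in NOD against 210 and 200 CPM in B6 (log2 -5.46, adjusted p = 0.00267). Agr2, which folds mucins, was at 2.72 and 1.91 against 54.6 and 40.2 CPM (log2 -4.34, adjusted p = 0.0117), and Clca1, a goblet cell protein, at 2.72 and 0 against 50.9 and 32.9 CPM (log2 -4.89, adjusted p = 0.00565). These 3 values depended on the hashtag rule. When 60% of hashtag UMIs on 1 hashtag sufficed, they were 0.80, 1.97 and 1.57 on the log2 scale, with adjusted p = 0.847, 0.518 and 0.626. Among antimicrobial genes, Lyz1, the Paneth cell lysozyme, was at 18.1 and 5.72 CPM in NOD against 776 and 981 CPM in B6 (log2 -6.19, adjusted p = 0.00281). Pglyrp1, which binds bacterial peptidoglycan, was at 202 and 151 against 1844 and 1390 CPM (log2 -3.20, adjusted p = 0.00287). In all, 4 of 15 antimicrobial genes were lower, none was higher and 11 were not called, while 12.0% of all genes tested were lower.

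Of 24 mimetic lineage transcription factors tested, 12 were lower and 1, Trp63, was higher. Foxa2, a pioneer factor of endoderm, was at 1.36 and 1.43 CPM in NOD and 27.2 and 17.7 CPM in B6 (log2 -3.98 ± 0.50, adjusted p = 0.00287). Ptf1a, the acinar factor, had 1 UMI in NOD and 95 in B6, a ratio of 64.3 (95% counting interval 11.3 to 2565). Hnf4g, an enterocyte factor, was at 22.2 and 21.4 against 104 and 188 CPM (log2 -2.74, adjusted p = 0.00572), and Sox8, a microfold factor, at 3.17 and 6.19 against 24.7 and 34.8 CPM (log2 -2.67, adjusted p = 0.00361). Factors of other lineages did not pass the test, among them Foxj1 of ciliated cells (log2 0.40), Grhl1 of keratinocytes (log2 0.31) and Insm1 of neuroendocrine cells (log2 0.08). None of 12 ciliated genes was called, and their shares of cells were not called to differ either (cluster 11, log2 0.37, adjusted p = 0.665). The keratinocyte list was the same, with 0 of 12 called and cluster 1 at log2 0.09 (adjusted p = 0.878). Without adjustment, 5782 of the 15067 genes had a p under 0.05.

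Of 7 islet autoantigens tested, 2 were lower and none was higher. Ica1, islet cell autoantigen 1, was at 9.07 and 16.2 CPM in NOD and 67.1 and 83.9 CPM in B6 (log2 -2.58 ± 0.27, adjusted p = 0.00153). Gad1, a glutamate decarboxylase, was at 2.72 and 4.29 against 8.74 and 20.3 CPM (log2 -2.04, adjusted p = 0.0478). Iapp, the islet amyloid peptide, was at 3.63 and 68.1 CPM in NOD and 313 and 598 CPM in B6 and was not called (log2 -3.68, adjusted p = 0.109). Ins2, the insulin gene expressed in thymus, had 6 and 0 UMIs in NOD and 4 and 10 in B6, too few to test. Of 11 candidate genes of NOD diabetes regions, 1 was higher and 1 lower, no larger a share than over all genes (11.9% and 12.0%). Il2ra, the high-affinity subunit of the IL-2 receptor, was at 57.1 and 67.2 CPM in NOD and 4.68 and 13.9 CPM in B6 (log2 2.74 ± 0.43, adjusted p = 0.00765). Il10, an anti-inflammatory cytokine, was at 16.8 and 12.4 against 89.6 and 45.6 CPM (log2 -2.21, adjusted p = 0.0101). The other 9, Ctla4 (log2 -3.60, adjusted p = 0.051) and Ptpn22 (log2 -0.36) among them, were not called.

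Of the programs that were higher in NOD, the interferon-stimulated genes had the largest count, and theirs was also the longest list. The smooth muscle and matrix lists given below had larger medians (log2 2.37 and 2.52). All 40 listed genes were tested, 32 were higher and none was lower, with a median log2 difference of 1.57. Summed over the list, the level was 8304 and 8851 CPM in NOD and 2737 and 3106 CPM in B6. BALB/c stood near NOD, at 7166 and 7737 CPM, so among these 6 mice B6 was the strain set apart. Iigp1, an immunity-related GTPase, was at 350 and 308 CPM in NOD and 29.97 and 31.96 CPM in B6 (log2 3.41 ± 0.14, adjusted p = 6.95e-05). Ifit3, an antiviral RNA-binding family member, was at 129 and 153 against 12.2 and 12.3 CPM (log2 3.52 ± 0.21, adjusted p = 0.000307). BALB/c was at 70.8 and 52.4 CPM. The near-identical neighbour of Ifit3, Ifit3b, was at 45.3 and 51.4 against 3.75 and 4.11 CPM, and reads of the pair can be split by counting. Mx1, an antiviral dynamin-like GTPase, was at 49.0 and 37.6 against 4.99 and 4.11 CPM (log2 3.24, adjusted p = 0.000868). The members that were not called included Irf1 (log2 -0.38), Ifih1 (log2 -0.01) and Irf9 (log2 0.43).

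**Figure D3:**
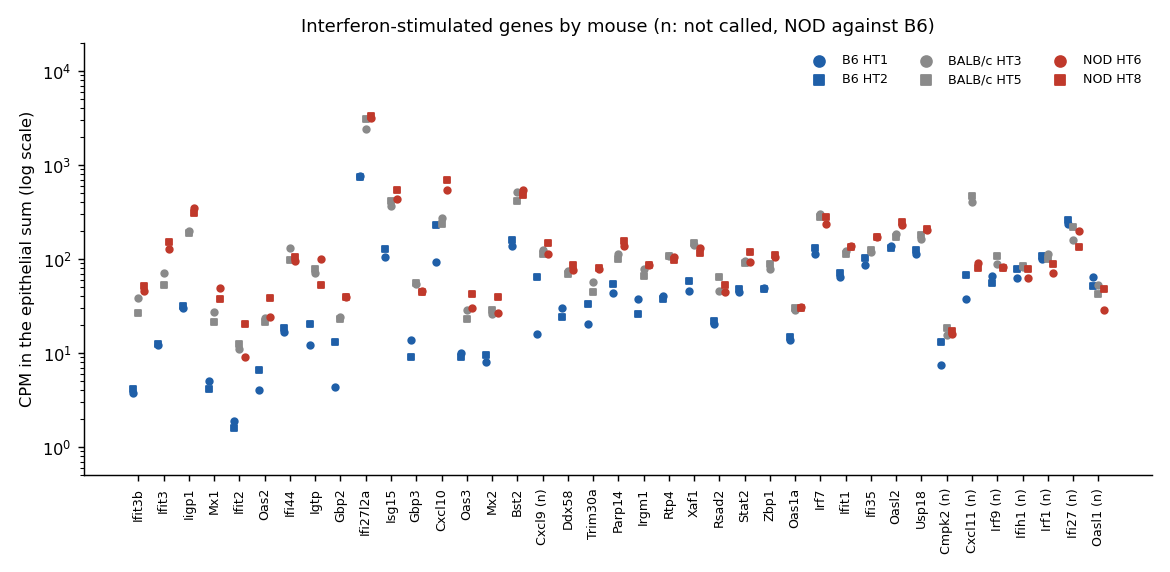
CPM in the epithelial sum (log scale, vertical axis) of 39 of the 40 interferon-stimulated genes (horizontal axis, ordered by NOD minus B6), with 1 point per mouse. For Ifit3 the NOD mice were at 129 and 153 CPM and the B6 mice at 12.2 and 12.3 CPM, and genes that were not called carry an n.

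The 250 bases before the start sites of these genes are described because the genes moved together. The core of the interferon-stimulated response element, GAAANNGAAA, was searched on both strands in RefSeq promoters (GRCm38.p6, matched by symbol). It was found in 15 of the 22 called genes with an entry (68.2%) and in 0 of 6 tested genes that were not called. Of all 11331 tested genes with an entry, 378 held it (3.34%). The list was made of known interferon-stimulated genes, so a share above that of all genes is no result of these data. The 6 genes that were not called are too few for a comparison. Ifit3 and Ifit3b have the same matched windows and were counted as 2 genes. The windows below run 5′ to 3′ on the strand of the gene, with the match in capitals and 20 bases on each side.
Cxcl10 chr5:92349073-92349122 (minus strand): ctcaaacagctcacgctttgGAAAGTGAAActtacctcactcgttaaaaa
Ifit3 chr19:34583353-34583402 (plus strand): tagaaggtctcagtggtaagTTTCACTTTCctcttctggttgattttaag
Isg15 chr4:156200861-156200910 (minus strand): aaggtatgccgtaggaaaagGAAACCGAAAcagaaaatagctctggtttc
Stat2 chr10:128270256-128270305 (plus strand): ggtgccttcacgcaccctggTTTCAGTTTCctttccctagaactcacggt
In Ifit3 and Stat2 the match lies on the opposite strand and reads TTTC first. Isg15, a ubiquitin-like modifier whose promoter holds overlapping matches, was at 430 and 539 CPM in NOD and 106 and 129 CPM in B6 (log2 2.05, adjusted p = 0.000865). Cxcl10, a chemokine for activated T cells, was at 546 and 686 against 92.7 and 228 CPM (log2 1.94, adjusted p = 0.0302), and Stat2 at 93.4 and 119 against 44.9 and 48.1 CPM (log2 1.19, adjusted p = 0.00311). A match describes the letters only.

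Of 9 interferon ligands, receptors and kinases tested, 4 were higher and none was lower. Ifnlr1, the receptor for type III interferon on epithelia, was at 15.4 and 18.6 CPM in NOD and 1.25 and 3.80 CPM in B6 (log2 2.74 ± 0.45, adjusted p = 0.00675). Ifnar2 (log2 0.55), Ifngr1 (log2 0.68) and Ifngr2 (log2 0.49) were also higher, with adjusted p of 0.0376, 0.0347 and 0.0433. Ifnb1, Ifnl2 and Ifnl3, genes for interferons themselves, had 0 UMIs in all 6 mice.

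The interferon-stimulated list differed among clusters as well as among strains. Its summed level in cluster 5 was 14078 and 13665 CPM in NOD and 13834 and 11341 CPM in B6, the latter from 3 and 7 cells. Cluster 8 was at 12508 and 14843 CPM in NOD, and the 4 B6 cells in it at 6671 CPM. In the clusters that B6 filled, the B6 level was low: 1754 and 2139 CPM in cluster 7 and 1901 and 1658 CPM in cluster 6. The few NOD cells there stood at 1195 (1 cell) and 3415 CPM (2 cells) in cluster 7. In cluster 6 they were above B6, at 2195 (1 cell) and 4489 CPM (3 cells). In cluster 0 the strains were far apart, with 11152 CPM (6 cells) and 7237 CPM (3 cells) in NOD against 1824 and 2211 CPM in B6. In the keratinocyte-like cluster they overlapped, at 3170 and 5763 CPM in NOD and 5827 and 4329 CPM in B6, as they did in cluster 9, at 5516 and 4688 against 2640 and 5657 CPM. Leaving out cluster 8 left 31 of the 40 genes higher, and leaving out clusters 4, 5 and 8, an alternative chosen after seeing the data, left 15, with the list's median at 0.81. The number of genes higher in NOD and its size thus depended on these clusters.

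**Figure D4:**
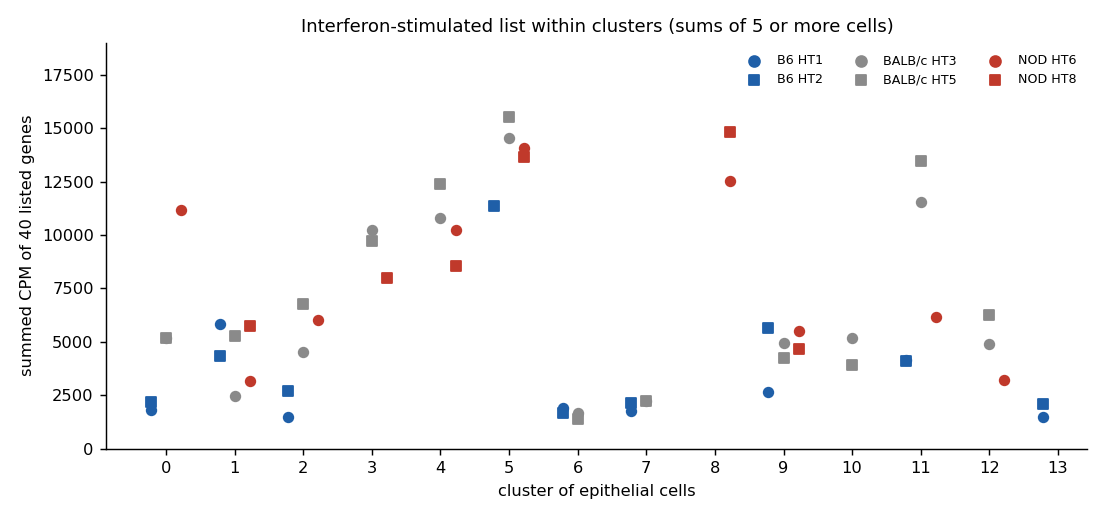
Summed CPM of the 40 interferon-stimulated genes (vertical axis) by cluster (horizontal axis), with 1 point per mouse and cluster with at least 5 cells. In cluster 5 the points of all strains lay between 11341 and 15527 CPM, while in cluster 0 the NOD point lay at 11152 CPM and the B6 points at 1824 and 2211 CPM.

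RNA of class II genes was higher in the NOD sums although cells were sorted for low surface class II. Of 13 class II genes 7 were higher and 1, Ctss, was lower. Ciita, the master activator of class II genes, was at 84.3 and 81.9 CPM in NOD and 30.3 and 29.4 CPM in B6 (log2 1.48 ± 0.13, adjusted p = 0.000896). H2-Ab1, the class II beta chain, was at 2659.5 and 2423 against 1155 and 1124 CPM (log2 1.16, adjusted p = 0.00202), and Cd74, the invariant chain, at 7714 and 6039 against 3424 and 3275 CPM (log2 1.04, adjusted p = 0.00433). H2-DMb2, a subunit of the peptide exchanger, was at 228 and 169 against 75.2 and 52.5 CPM (log2 1.64, adjusted p = 0.00353), while H2-DMb1 beside it was not called (log2 -0.11). The level of 4 class II genes (H2-Aa, H2-Ab1, H2-Eb1 and Cd74) within cluster 9 was 22064 and 20602 CPM in NOD and 23636 and 19088 CPM in B6. It overlapped there, and cluster 9 was also the cluster with the larger NOD share. In cluster 5 it was 17303 and 17978 CPM in NOD and 10123 (3 cells) and 13056 (7 cells) CPM in B6. Cluster 0 went the other way, at 8507 (6 cells) and 6938 (3 cells) CPM in NOD and 11855 and 10997 CPM in B6. In the ciliated-like cluster NOD was higher, at 9303 (8 cells) and 8962 (3 cells) against 2609 (9 cells) and 2092 (5 cells) CPM.

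Of 19 genes of class I presentation, 9 were higher and 3 were lower. The genes that rose were Psme1, Psme2, Psmb8, Psmb9, Psmb10, Tap1, Tap2 and Erap1, all of peptide supply, and the nonclassical chain H2-M3. Psme2, an activator subunit of the proteasome, was at 593 and 473 CPM in NOD and 253 and 227 CPM in B6 (log2 1.15, adjusted p = 0.00462). Psmb8, an immunoproteasome subunit, was at 516 and 500 against 272 and 287 CPM (log2 0.86, adjusted p = 0.0033), and Tap2, a subunit of the peptide transporter, at 204 and 201 against 101 and 117 CPM (log2 0.89, adjusted p = 0.00531). The 3 that fell were nonclassical chains, led by H2-T22 (chr17:36037128-36042747, minus strand), a ligand of some gamma-delta T cell receptors, at 11.8 and 9.53 CPM in NOD and 136 and 168 CPM in B6 (log2 -3.83 ± 0.19, adjusted p = 0.000165). H2-Q7 (log2 -0.58, adjusted p = 0.0126) and H2-Q6 (log2 -0.49, adjusted p = 0.0269) were the others. The count of 3 fell to 1 without B6 HT2, without NOD HT6, without NOD HT8 and with 95% of hashtag UMIs on 1 hashtag, and H2-T22 was called in each of these settings. Class I genes are near-identical and polymorphic, so counts of a single member are uncertain. B2m, the shared light chain, was at 4104 and 3827 CPM in NOD and 3438 and 3265 CPM in B6 and was not called (log2 0.24, adjusted p = 0.175).

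Contractile and matrix genes were higher, with 7 of 9 smooth muscle and 8 of 12 matrix genes called higher (medians 2.37 and 2.52 on the log2 scale). One matrix gene, Antxr2, a receptor for collagen VI, was lower, at 25.8 and 17.1 against 40.6 and 49.4 CPM (log2 -1.06, adjusted p = 0.0175). Without clusters 4, 5 and 8 the matrix count was 4. Acta2, smooth muscle actin, was at 338 and 413 CPM in NOD, 12.2 and 21.2 CPM in B6 and 193 and 203 CPM in BALB/c (log2 4.49 ± 0.26, adjusted p = 0.000368). Col6a1, a microfibril collagen, was at 167 and 203 CPM in NOD against 4.06 and 15.5 CPM in B6 and 35.8 and 51.1 CPM in BALB/c (log2 4.24 ± 0.53, adjusted p = 0.0063). Of fibroblast genes, Col1a1 and Col1a2 had 0 and 2 UMIs over both NOD mice and 2 and 0 over both B6 mice. Col3a1 had 6 and 12 UMIs in NOD against 0 and 2 in B6, and Dcn was at 40.8 and 24.8 against 5.62 and 18.7 CPM (log2 1.43, adjusted p = 0.128). The fibroblast and pericyte list's summed level was 386 and 351 CPM in NOD and 291 and 261 CPM in B6, mostly Rgs5 (329 and 315 against 258 and 217 CPM, log2 0.44, adjusted p = 0.0452), and its part in the result was not tested. Of 7 genes of immature mTEC and the sort gate, 5 were higher and 1 lower. Itgb4, which codes for CD104, was at 96.1 and 111 against 30.6 and 38.9 CPM (log2 1.58, adjusted p = 0.00149), and Pdpn at 18.6 and 28.6 against 1.87 and 3.80 CPM (log2 3.04, adjusted p = 0.00328). Ccl21a, a chemokine of immature mTEC with near-identical copies, was at 2016.5 and 2434 against 375 and 724 CPM (log2 2.02, adjusted p = 0.00958). Ackr4, a scavenging chemokine receptor, was lower, at 2.72 and 3.81 against 15.3 and 11.1 CPM (log2 -2.01, adjusted p = 0.00919).

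Cell cycle genes were higher for 11 of 15 members, such as Mki67 at 50.8 and 55.3 CPM in NOD and 9.99 and 16.8 CPM in B6 (log2 1.98, adjusted p = 0.00406). This count fell to 2 without either B6 mouse, to 5 without NOD HT6, to 6 without the tuft-like clusters, and to 0 without cluster 9. Aire was at 158 and 114 CPM in NOD and 68.7 and 27.5 CPM in B6. The strains did not overlap, but the difference missed the threshold (log2 1.497 ± 0.46, adjusted p = 0.0738). Of the other Aire stage genes, Cd40, the receptor for T cell help, was higher at 80.3 and 67.2 against 23.7 and 25.002 CPM (log2 1.60, adjusted p = 0.00173).

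The largest single differences between NOD and B6 were genes nearly absent from 1 of these 2 strains. Of the 3593 called genes (15067 tested), 162 had 3 or fewer UMIs in NOD and were seen in B6. Another 58 had 3 or fewer in B6 and were seen in NOD. Only 15 of the 162 and 10 of the 58 also had 3 or fewer UMIs in BALB/c. The bound is easier to meet in NOD, which had fewer UMIs in all. Trim12a (chr7:104299894-104315466, minus strand), an antiviral TRIM family gene, had 520 UMIs in B6 and 0 in NOD, at least 117-fold higher in B6 (3 counts over the group taken for NOD). Skint3, Skint4 and Skint9, butyrophilin-like genes of skin and thymic epithelium that lie together on chromosome 4 (chr4:112072016-112433985 from the start of Skint4 to the end of Skint9), had 1648, 1067 and 1147 UMIs in B6 and 2, 1 and 3 in NOD. The ratio for Skint9 was 259 (95% counting interval 88.3 to 1256). BALB/c was as low as NOD for these genes, at 0.327 and 0.542 CPM of Skint9. Genes of 4 bitter taste receptors, Tas2r115, Tas2r116, Tas2r123 and Tas2r129, formed another group in 1 megabase of chromosome 6, with 45, 17, 32 and 28 UMIs in B6 and 3, 0, 1 and 0 in NOD. Bitter receptors are carried by tuft cells, and BALB/c held 72, 51, 360 and 83 UMIs. In the other direction, Serpina3n (chr12:104406729-104414329, plus strand), a secreted protease inhibitor, had 69 UMIs in NOD and 0 in B6, at least 34.0-fold higher in NOD. BALB/c held 213 UMIs of Serpina3n. Zfp985, a zinc finger gene, had 38 UMIs in NOD and 0 in B6, and its neighbour Zfp979 had 150 and 3. BALB/c held 1 UMI of Zfp985 and 3 of Zfp979.

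Some called genes have a near-identical copy, and the pairs given here were chosen after their values were seen. Csnk2a3, an intronless copy of the casein kinase subunit Csnk2a1, was at 92.1 and 81.4 CPM in NOD and 5.62 and 3.16 CPM in B6 (log2 4.29, adjusted p = 0.000368). Csnk2a1 itself was at 31.7 and 48.1 against 113 and 94.0 CPM (log2 -1.38, adjusted p = 0.00484). Summed, the pair stood at 124 and 130 CPM in NOD and 119 and 97.2 CPM in B6, so the called fall of Csnk2a1 and rise of Csnk2a3 nearly cancelled. Ndufa12 with its pseudogene behaved likewise, with 201 and 191 against 181 and 149 CPM for the pair and 47.9% of the NOD but 2.38% of the B6 UMIs on the pseudogene. Ubb, a polyubiquitin gene, did not: it was at 258 and 205 against 862 and 901 CPM (log2 -1.93, adjusted p = 0.000727), and with Ubb-ps the pair was still at 391.8 and 320.1 against 902 and 942 CPM. Rpl29 with Rpl29-ps5 was at 232 and 245 against 615 and 591 CPM, with BALB/c at 152 and 194 CPM. Rps24-ps3 (chrX:79195047-79195448), a ribosomal pseudogene, was at 469 and 467 CPM in NOD and 0.936 and 2.22 CPM in B6. Reads from copies of this likeness cannot be told apart reliably, and mm10 is the B6 genome. The part of alignment in these values was not tested.

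**Figure D5:**
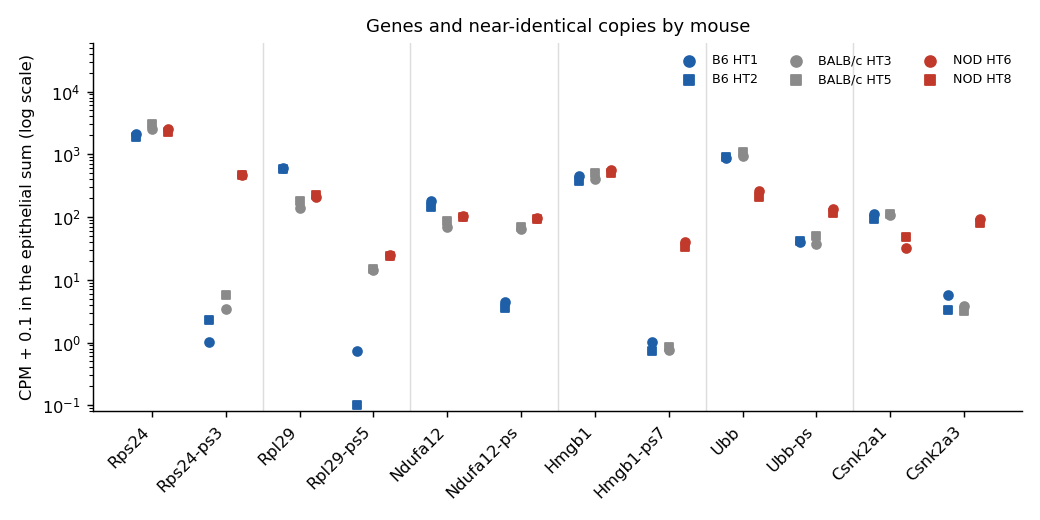
CPM plus 0.1 in the epithelial sum (log scale, vertical axis) of 6 genes and their near-identical copies (horizontal axis, pairs between grey lines), with 1 point per mouse. Csnk2a1 was lower and Csnk2a3 higher in both NOD mice, at 31.7 and 48.1 CPM and at 92.1 and 81.4 CPM.

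A last comparison asked which genes differed inside clusters, with cluster and strain as terms in limma and mouse as block. On sums of at least 10 cells it rested on 3 NOD and 2 B6 sums from clusters 1 and 9. Of 9320 genes tested, 9 were higher (0.0966%) and 33 lower (0.354%) in NOD. Skint4 (log2 -7.01 ± 0.72, adjusted p = 0.00082), H2-T22 (log2 -4.05 ± 0.45, adjusted p = 0.00137) and Ubb (log2 -1.75, adjusted p = 0.00593) were lower here as in the sums. Rbp2, a cellular retinol-binding protein, was higher (log2 3.83, adjusted p = 0.00348). Flg, filaggrin of the cornified layer, was lower (log2 -3.55, adjusted p = 0.00082). No interferon-stimulated gene was called in this fit (35 tested, median log2 0.42). Of 13 class II genes tested in it, none was higher and 1 was lower (median log2 -0.18). Without B6 HT1, B6 HT2 or NOD HT8 the fit kept 1 cluster and called 0 to 1 genes higher and 1 to 2 lower.

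Sums of at least 5 cells were an alternative to the bound of 10, with 6 clusters (0, 1, 2, 5, 9 and 11). Of 10078 genes tested, 498 were higher (4.94%) and 601 lower (5.96%). The fit held 9 NOD and 11 B6 sums from 2 mice per strain. The block's estimated correlation between sums of 1 mouse was -0.055 (-0.154 at 10 cells). Sums of the same mouse thus counted nearly as separate replicates, and p-values of this fit do not measure the spread between mice. The interferon-stimulated list then had 16 of 39 genes higher and none lower, with a median of 0.64 beside -0.04 over all genes tested. Among them were Igtp (log2 1.93, adjusted p = 0.000703), Mx1 (log2 1.68, adjusted p = 0.00104) and Iigp1 (log2 1.65, adjusted p = 0.00147). Of 13 class II genes 3 were higher, H2-Aa (log2 0.66, adjusted p = 0.0182), H2-Eb1 (log2 0.48, adjusted p = 0.033) and H2-DMb2 (log2 0.71, adjusted p = 0.0113), while Ciita was not called (log2 0.42, adjusted p = 0.408). Acta2 (log2 2.36, adjusted p = 0.0151) and Col6a1 (log2 2.03, adjusted p = 0.0266) were higher within clusters as well. Reg3g (log2 -5.11, adjusted p = 5.87e-08) and Pou2f3 (log2 -1.24, adjusted p = 0.00303) were lower. No cell cycle gene was called of 13 tested, and no microfold gene of 7.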

How the data were processed

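The deposited matrix holds raw UMI counts of genes and hashtags for every barcode, not scaled. The submitters' processing notes name Cell Ranger 7.0.0 and mm10, and the annotation release is not given in the sources used here. mm10 is the B6 genome, so transcripts of NOD alleles can align less well, and this was not tested. Cells were chosen as in the first paragraph. The hashtag rule removes barcodes with RNA of 2 mice only where neither hashtag dominates. Hashtag depth differed between mice and no doublet caller was run, so doublets between and within mice can remain. Of 1808 epithelial barcodes, 82 had under 100 hashtag UMIs and 234 a leading hashtag under 80%.

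Cells were clustered in scanpy 1.11.5 (1992 variable genes, 30 components, 15 neighbours, Leiden resolution 1). A marker was passed at 10% of a cluster's cells and 1 log2 unit above the others. Raw counts were summed per mouse and tested with edgeR 4.0.16 (TMM, filterByExpr, robust quasi-likelihood, 6 mice, 3 residual degrees of freedom), cells per cluster with edgeR, and sums per cluster and mouse with limma 3.58.1 (voom). All p-values were adjusted by Benjamini-Hochberg over everything tested at a threshold of 0.05. With 2 mice a strain, p-values of the sums per mouse measure the spread between these mice, partly shared over genes. The test of shares took the spread between mice from all tested clusters together. Its p-values thus do not measure how a single cluster varied between mice. Exact permutation of 2 against 2 cannot give a p below 0.333. The p-values within clusters measure mostly the spread between sums, and more than 1 sum can come from the same mouse. CPM uses TMM-scaled totals, except within clusters, where it uses the plain UMI total. Scripts were tested on simulated data. Coordinates are those of GENCODE M21 by gene identifier (54435 of 55487 matched).

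The members and gene lists were chosen with earlier results of these data known. Named genes were the 10 called genes with the largest difference in each direction among those whose strains did not overlap, the 8 in each direction called in both fits, up to 4 called members of each list, and H2-Ea, Aire, Ciita, Ins2, Pou2f3 and B2m; other names were added after their values were seen. The keratins and Epcam were used by the cell rule and give no result. Alternatives to scaling, filters, hashtag and cell bounds, cells summed and mice were run. Results of some genes are not reported here, though they entered the tests and the counts.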

Additional observations from a re-analysis of the deposited data

Results flagged for a closer look

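The feature list of the library held hashtags of no mouse in the pool, and 6 of them had UMIs above the 3 that a count of 0 allows. HT12 had 3303 UMIs, HT4 had 3282 and HT9 had 3249 over all barcodes. HT7 had 43, HT11 had 24 and HT10 had 10. HT9 exceeded the leading hashtag of the pool in 16 barcodes and HT12 in 6, while NOD HT8, the weakest hashtag of the pool, had 370031 UMIs. These hashtags entered no comparison.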

How the results depend on the processing

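The sums called 1787 genes higher and 1806 lower. Leaving out each mouse in turn gave 950 to 1368 higher and 967 to 1299 lower, and without the tuft-like clusters they were 1126 and 1151. The other settings stayed within 1.5 times. For cluster shares, 4 higher and 3 lower, leaving out a mouse gave 4 to 5 and 3 to 4, and 95% on 1 hashtag, where clusters 6 and 8 were under 30 cells and not tested, gave 2 higher. Within clusters, 9 higher and 33 lower became 498 and 601 at 5 cells per sum, 25 higher with no filter on low counts, and 0 to 7 higher and 1 to 18 lower without 1 mouse. A minimum of 20 cells could not be fitted. Of 106 named genes over 18 settings (1897 values), 1647 kept direction and side of the threshold, and 237 lost the call. Reversals were Agr2 (1.97), Clca1 (1.57) and Tff3 (0.80) at 60% on 1 hashtag, Il17rb (0.30) without tuft-like clusters, Rrm2 (-0.36) without cluster 9, Rgs5 (-0.48) without clusters 4, 5 and 8, and, within clusters at 5 cells per sum, B2m (0.34). The interferon-stimulated count was 30 to 34 in every setting but the one without clusters 4, 5 and 8 (15). The enterocyte-hepatocyte count of 6 was 10 with DESeq2 and 3 both without B6 HT2 and without clusters 4, 5 and 8. The microfold count of 7 was 4 without B6 HT2, the secretory count of 5 was 1 to 3 in 5 settings, and the class I count of 3 lower was 1 in 4 settings, as given with each list. The cause of these changes was not tested. No paired analysis was run. All NOD spreads rest on taking the 2 NOD hashtags as 2 mice, although the labels give them the same replicate number. Depth limits NOD most, with 111 and 112 cells.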
